A study of Mus musculus with 3 samples.

Results

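The miRNAs described here are both arms of 3 related hairpins, miR-28a, miR-708 and miR-151, in cultured ovaries of newborn CD1 mice. The 6 mature miRNAs are mmu-miR-28a-5p, mmu-miR-28a-3p, mmu-miR-708-5p, mmu-miR-708-3p, mmu-miR-151-5p and mmu-miR-151-3p, out of 627 in the deposited counts, and all 6 were found, each as a single entry. They were chosen by name as related hairpins, and selected on the measured rises of their 3p arms at 100 μM DEHP, so the differences at 100 μM describe what chose them and carry no test. DEHP, di(2-ethylhexyl) phthalate, is a plasticizer, and the ovaries were kept for 3 days, to postnatal day 3, in medium with 0, 10 or 100 μM of it. The 0 μM group received only the solvent, DMSO. Ovaries of many pups were divided among the groups, and each group is represented by 1 small RNA library, without a replicate.

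A miRNA is cut from a hairpin-shaped RNA whose 5′ side gives the 5p arm and whose 3′ side gives the 3p arm. The 2 arms leave the hairpin as a duplex, 1 of them is usually loaded into an Argonaute protein, and the other is mostly degraded, so that the ratio of the arms differs between hairpins and can differ between tissues. Bases 2 to 8 of the loaded arm, the seed, largely decide which mRNAs it represses. The 2 arms of a hairpin therefore have different targets although they come from the same transcript. The hairpins of this family lie in introns of protein-coding genes. miR-28 is best known from B cells and their tumours, miR-708 from endoplasmic reticulum stress, and miR-151 from cell migration, where it is made together with focal adhesion kinase.

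In GENCODE M21 on GRCm38, the build that the submitters call mm10, Mir28a spans bases 24827855 to 24827940 of chromosome 16 (plus strand), in an intron of Lpp, which encodes a focal adhesion protein. Mir708 spans bases 96249424 to 96249532 of chromosome 7 (plus strand), in an intron of Tenm4, which encodes a teneurin. Mir151 spans bases 73254815 to 73254882 of chromosome 15 (minus strand), in an intron of Ptk2, the gene of focal adhesion kinase. Each hairpin is on the strand of its host gene and overlapped no exon of the host transcripts that span it, which were 3 for Lpp, 7 for Tenm4 and 5 for Ptk2. The host mRNAs were not measured.

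The libraries held 5253367 counts at 0 μM, 5064602 at 10 μM and 5952274 at 100 μM, with 1 entry kept for each miRNA. Most of the values below are normalized counts, which are counts divided by the median-of-ratios size factor of the library (1.38, 1.35 and 0.546). The 10 most abundant miRNAs held 70.5% of the counts of the 100 μM library, against 45.4% in the control and 45.6% in the 10 μM library, so the library with the smallest factor stands apart in its composition. In all 3 libraries the most abundant miRNA was miR-10b-5p. A log2 ratio is given between normalized counts with 0.5 added, and 587 miRNAs, including all 6 arms, averaged at least 10 normalized counts. Intervals are 95% intervals of counting error and leave out the variation between cultures, which 1 library per concentration cannot show.

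The labelled tissue was looked at through miRNAs known from single tissues or cell types. Both arms of miR-202, a miRNA of the gonads, were present and summed to 31188, 40382 and 19964 normalized counts at 0, 10 and 100 μM, mostly miR-202-5p, while the liver miRNA miR-122-5p had 16.0, 10.4 and 14.7. Abundant gonadal and scarce liver miRNA thus marked each library. The less abundant arm, miR-202-3p, had 1171, 935 and 2012, a log2 ratio of 0.78 between 100 and 0 μM (-0.74 with total counts), against -0.74 for miR-202-5p, and log2(3p/5p) of miR-202 changed by 1.52. Both endothelial markers were detected, miR-126a-3p being the more abundant, and they summed to 46170, 52252 and 9855. For the smooth muscle and stroma pair, led by miR-143-3p, the sum was 214447, 170354 and 793809, although its other member, miR-145a-5p, had 5353, 8320 and 2329. At 100 μM the endothelial sum was thus the lowest of the 3 libraries and the stromal sum the highest. The stromal sum is mostly miR-143-3p, and log2(3p/5p) of miR-143 changed by 4.97 between 100 and 0 μM. That is a shift toward the 3p arm, as in the hairpins described below (4.62 for miR-151 and 4.58 for miR-28a). The 5p arm of miR-143 had 596 counts at 0 μM and 28 at 100 μM. The part of this arm shift in the stromal sum was not tested. The log2 ratios between 100 and 0 μM were -2.23 for the endothelial, 1.89 for the stromal and -0.64 for the gonadal sum, which is mostly miR-202-5p, and with total-count scaling they were -3.74, 0.37 and -2.16.

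All 3 miRNAs of red blood cells, with miR-486a-5p the most abundant, were detected and summed to 948, 1009 and 835 normalized counts, with miR-144-3p at 3 counts in the 10 μM library and 2 in the 100 μM library. The 6 miRNAs of germ cells and early embryos were all detected and summed to 2614, 1901 and 5507. The most abundant of them was miR-293-3p at 0 and 10 μM, with 1095, 686 and 973 normalized counts, and miR-294-3p at 100 μM, with 336, 266 and 2184. The sum at 100 μM was thus not higher through all of its members, since miR-293-3p and miR-290a-5p (21.0, 31.2 and 12.8) were lower at 100 than at 0 μM. The values of miR-290a-5p rest on only 29, 42 and 7 counts, and counting intervals were not computed for the markers. Of the neuronal pair miR-9-5p had 512, 497 and 660 normalized counts, and miR-124-3p was not analysed here. Scaled to total counts, the germ cell sum and miR-9-5p were lower at 100 than at 0 μM, and miR-9-5p also when the 10 most abundant miRNAs were left out of the scaling. None of the markers detected had a count of 0. The red blood cell sum had a log2 ratio of -0.18 between 100 and 0 μM (-1.70 with total counts). The endothelial, stromal, gonadal and germ cell sums differed at 100 μM along with the arms described below. The part of these markers in the values of the arms was not tested. In whole ovaries, fewer cells of a type and less RNA per cell cannot be told apart.

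At 100 μM DEHP the 3p arms of all 3 hairpins were higher and the 5p arms lower than at 0 μM. At 10 μM the 6 log2 ratios to the 0 μM level were between -0.40 and 0.30. The comparisons of 10 and of 100 with 0 μM share the control library, and their values are given side by side only.

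mmu-miR-708-3p had 3962 counts at 0 μM, 2935 at 10 μM and 22151 at 100 μM, or 2875, 2177 and 40582 normalized counts. The 100 μM library was thus far above the other two, which differed much less from each other. The log2 ratio of mmu-miR-708-3p between 100 and 0 μM was 3.82 (95% interval 3.77 to 3.87), the highest of the 587 miRNAs, and that between 10 and 0 μM was -0.40 (-0.47 to -0.33). By rank of abundance it went from place 116 of the 627 miRNAs at 0 μM to place 33 at 100 μM.

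mmu-miR-28a-3p had 975, 905 and 5266 counts, or 707, 671 and 9648 normalized counts. Again only the 100 μM library stood apart, and the 0 and 10 μM values differed by less than their counting error, with a log2 ratio of -0.08 (-0.21 to 0.06). Between 100 and 0 μM the log2 ratio was 3.77 (3.67 to 3.87), next in rank after mmu-miR-708-3p.

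mmu-miR-151-3p, the most abundant of the 6 arms at 0 μM, had 5184, 6231 and 16249 counts, or 3762, 4623 and 29769 normalized counts. It was the 3p arm with the smallest difference at 100 μM, with a log2 ratio of 2.98 (2.94 to 3.03), place 14 among the 587 miRNAs. At 10 μM it was slightly above 0 μM (0.30, interval 0.24 to 0.35), whereas the other two 3p arms were slightly below. As a share of all counts in its library, mmu-miR-151-3p went from 0.0987% (Wilson 95% limits 0.0960% and 0.101%) in the control to 0.273% (0.269% and 0.277%) in the 100 μM library. Comparing such shares amounts to total-count scaling, which gave this arm a log2 ratio of 1.47, below the threshold of 2. The same share was 0.0754% and 0.372% for mmu-miR-708-3p, and 0.0186% and 0.0885% for mmu-miR-28a-3p.

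The 5p arms were lower at 100 μM, by unequal amounts. mmu-miR-708-5p had 2907, 2407 and 166 counts at 0, 10 and 100 μM, or 2109, 1786 and 304 normalized counts. Its log2 ratio at 100 μM was -2.79 (-3.03 to -2.57), the 32nd lowest of the 587, and at 10 μM it was -0.24 (-0.32 to -0.16). In the control library this arm was 1.36-fold below its partner, and in the 100 μM library 133-fold below it.

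mmu-miR-151-5p had 748, 785 and 95 counts, or 543, 582 and 174 normalized counts, and a log2 ratio of -1.64 (-1.96 to -1.33) at 100 μM. mmu-miR-28a-5p had 690, 762 and 155 counts, or 501, 565 and 284 normalized counts, and a log2 ratio of -0.82 (-1.08 to -0.56). Neither of these arms was below -2 with this scaling, but with total counts both were (-3.15 and -2.33), and mmu-miR-151-5p also when the 10 most abundant miRNAs were left out (-2.22). Nearly the same counts as for mmu-miR-28a-5p are listed for miR-28c, possibly from shared reads. The 3p share, arm ratio, sum of both arms and place in the order given for miR-28a rest on the mmu-miR-28a-5p count. Their intervals do not cover that doubt. At 10 μM the log2 ratio of mmu-miR-151-5p was 0.10 (-0.04 to 0.25), within counting error, and that of mmu-miR-28a-5p was 0.17 (0.02 to 0.33).

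In all, 3 of the 6 arms had a log2 ratio above 2 between 100 and 0 μM, beside 10.4% of all 587 miRNAs, and 1 had a ratio below -2, beside 9.37%. These shares are given for scale only, since this comparison chose the arms. Between 100 and 10 μM, a comparison that shares the 100 μM library, the same counts were 3 above 2 (12.3% of all miRNAs) and 1 below -2 (8.69%). At 10 μM, 0 of the 6 were beyond 2 in either direction, as against 0.681% of all miRNAs. The median of the 3p arms at 100 against 0 μM was 3.77 and that of the 5p arms -1.64, while over all miRNAs the median was 0.25 for the 274 3p arms and -0.17 for the 270 5p arms. When the libraries were scaled to total counts, the median of all miRNAs moved by -1.50, and the split of the arms beyond 2 became 2 higher and 3 lower, beside 0.681% of all miRNAs higher and 35.4% lower with that scaling. The sign of each arm at 100 against 0 μM was the same under all 5 scalings.

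**Figure D1:**
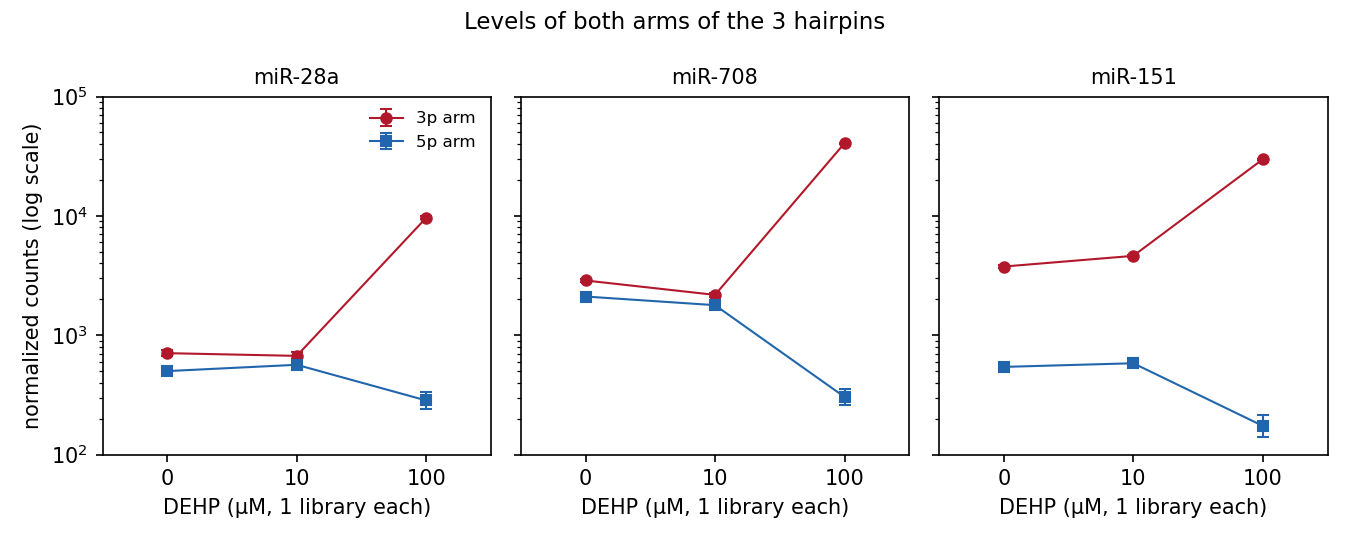
Normalized counts (log axis) of the 3p arm (red circles) and the 5p arm (blue squares) of miR-28a, miR-708 and miR-151 at 0, 10 and 100 μM DEHP, 1 library each, with exact Poisson 95% intervals of the count that are often smaller than the symbols. The arms lie close together at 0 and 10 μM for miR-28a and miR-708, and in all 3 panels they are farthest apart at 100 μM.

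The order of the 6 levels also differed. These are read counts of mature miRNAs, which are near each other in length (22 or 23 bases for the arms of miR-28a and miR-708, while the lengths of the miR-151 arms were not used here), compared without a correction for how well each sequence is captured in a library. At 0 μM the order was mmu-miR-151-3p, mmu-miR-708-3p, mmu-miR-708-5p, mmu-miR-28a-3p, mmu-miR-151-5p and mmu-miR-28a-5p. Of these neighbours only the last pair did not differ beyond counting error (1.08-fold, interval 0.976 to 1.20). The 10 μM library had the same order, with the same pair unresolved. At 100 μM all of the 3p arms held the upper places, led by mmu-miR-708-3p, and the lowest of them, mmu-miR-28a-3p, was 31.7-fold (27.2 to 37.2) above the highest 5p arm, mmu-miR-708-5p. There mmu-miR-708-5p and mmu-miR-28a-5p did not differ beyond counting error (1.07-fold, 0.855 to 1.34).

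The ratio of the 2 arms within a library does not depend on how libraries are scaled. Of the miR-708 counts, 57.7% (Wilson 95% limits 56.5% and 58.8%) were 3p in the control library, 54.9% (53.6% and 56.3%) in the 10 μM library and 99.3% (99.1% and 99.4%) in the 100 μM library. In miR-28a the 3p share was 58.6% (56.2% and 60.9%), 54.3% (51.9% and 56.7%) and 97.1% (96.7% and 97.6%). In miR-151, whose 3p arm was already the main one, it was 87.4% (86.5% and 88.2%), 88.8% (88.1% and 89.5%) and 99.4% (99.3% and 99.5%). In the control and 10 μM libraries the 3p arms of miR-28a and miR-708 were thus between 1.19-fold and 1.41-fold above their 5p arms, and in the 100 μM library the 3p arm made up almost all of the counts of each hairpin.

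Expressed as a change of log2(3p/5p) between 100 and 0 μM, this was 6.61 (exact conditional interval 6.38 to 6.85) for miR-708, 4.62 (4.31 to 4.95) for miR-151 and 4.58 (4.31 to 4.87) for miR-28a. The values of miR-151 and miR-28a lay within each other's intervals. At 10 μM the change was -0.16 (-0.27 to -0.06) for miR-708, -0.25 (-0.45 to -0.05) for miR-28a and 0.20 (0.04 to 0.35) for miR-151. These small values at 10 μM exceeded counting error, and miR-151 differed in sign from the other two hairpins.

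Both arms were measured at the same minimum level in 174 hairpins. Of these, 34 had a change of log2(3p/5p) above 2 between 100 and 0 μM (19.5%), among them all 3 hairpins of the family, and 26 had a change below -2. An arm with 3 counts or fewer was present in 2 of the 34 and 1 of the 26, none of them in the family. Not all of the 174 are separate measurements, since some related hairpins hold the same counts. Those of miR-486a and miR-486b are the same in both arms. The 3p counts are the same in miR-465a, miR-465b and miR-465c, and in miR-199a and miR-199b. The members took places 2 (miR-708), 6 (miR-151) and 7 (miR-28a) among the 174, whose median was 0.44 with quartiles of -1.09 and 1.72. Between 100 and 10 μM, a comparison that shares the 100 μM library, 36 of the 174 (20.7%) passed 2, with all 3 hairpins among them. Between 10 and 0 μM 1 hairpin passed 2 (0.575%), which was none of the 3, and their changes lay inside the quartiles of -0.42 and 0.40. A large change of the arm ratio at 100 μM was found in both directions across the 174 hairpins. The 3 related hairpins were all near the upper end. The rises of their 3p arms at 100 μM chose them, so these places describe that choice.

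**Figure D2:**
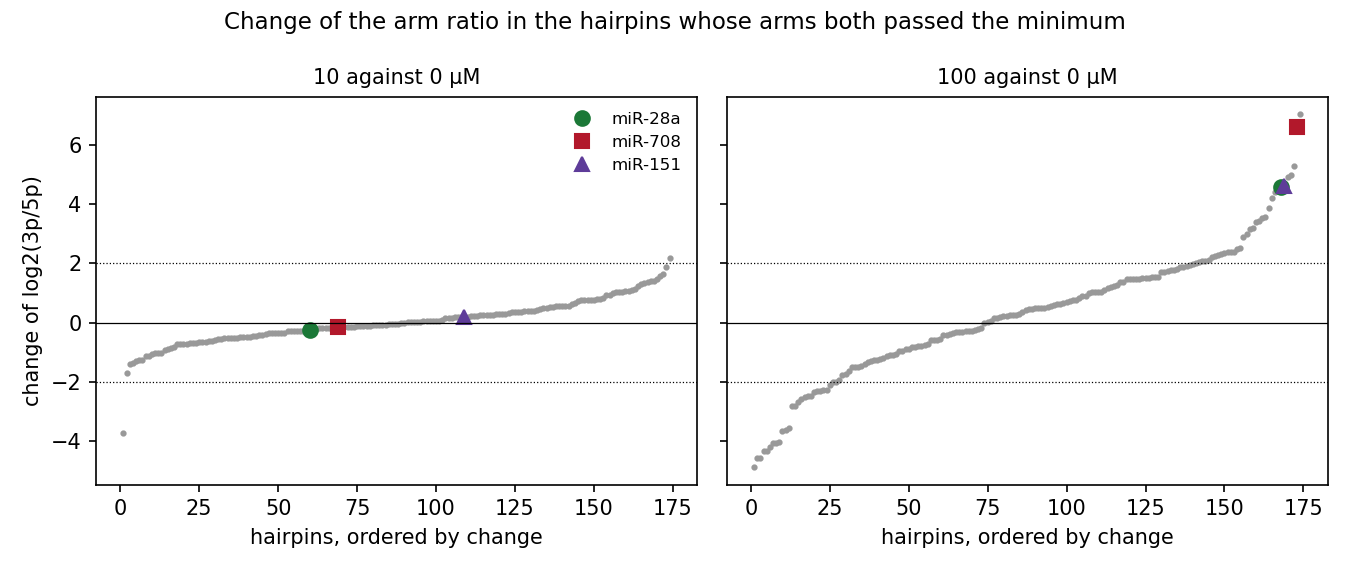
Change of log2(3p/5p) in 174 hairpins, ordered from lowest to highest, between 10 and 0 μM DEHP (left) and between 100 and 0 μM (right), with dotted lines at 2 and -2. Each point is 1 hairpin, and some related hairpins share counts. The 3 family members lie in the middle of the order at 10 μM and at places 2, 6 and 7 from the top at 100 μM.

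The arms of 55 of the 174 hairpins went as in this family, with the 3p arm higher and the 5p arm lower at 100 than at 0 μM, and in 39 hairpins the 5p arm was higher and the 3p arm lower. These numbers depend on the scaling, and with total counts they were 24 and 22, with all 3 hairpins of the family among the 24. The starting balance was also looked at. In 30 hairpins, miR-28a and miR-708 among them, log2(3p/5p) at 0 μM was within 1 of 0. Of these 30, 8 had a change above 2, the highest being that of miR-708, and 5 a change below -2, with an arm at 3 counts or fewer in the 100 μM library in 1 of the 8 and 1 of the 5. In the 92 hairpins whose arms both averaged at least 100 normalized counts, the largest changes toward the 3p arm were those of miR-30e (7.04), miR-708 and miR-140 (5.30). The largest toward the 5p arm were those of miR-10b (-4.87), miR-380 (-4.59) and miR-200a (-4.58). In miR-30e log2(3p/5p) was also higher at 10 than at 0 μM, by 1.49, whereas in the family described here the highest value at 10 μM was the 0.20 of miR-151.

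The 2 arms did not balance each other. The summed normalized count of both arms was 1208, 1237 and 9932 for miR-28a at 0, 10 and 100 μM, 4984, 3963 and 40886 for miR-708, and 4304, 5205 and 29943 for miR-151. Between 100 and 0 μM the sums had log2 ratios of 3.04 (2.96 to 3.12), 3.04 (3.00 to 3.08) and 2.80 (2.76 to 2.84). miR-28a and miR-708, at different levels, thus had ratios that differed by less than their counting error. The miR-28a sum includes the mmu-miR-28a-5p count, possibly from reads shared with miR-28c, and mmu-miR-28a-3p alone had a log2 ratio of 3.77. With total-count scaling the log2 ratios of the 3 sums were 1.52, 1.52 and 1.28, so their size depended on the scaling. Their sign was the same under all 5 scalings.

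Mature sequences from RefSeq (GRCm38.p6) were matched by miRNA name for 529 of the 627 miRNAs and for 4 of the 6 arms, all but mmu-miR-151-5p and mmu-miR-151-3p. They are shown because the 5p arms of miR-28a and miR-708, which were lower at 100 μM, share a seed, and their 3p arms, which were higher, do not. Capitals mark the seed, bases 2 to 8 from the 5′ end.
mmu-miR-28a-5p: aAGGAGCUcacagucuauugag
mmu-miR-708-5p: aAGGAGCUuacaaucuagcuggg
mmu-miR-28a-3p: cACUAGAUugugagcugcugga
mmu-miR-708-3p: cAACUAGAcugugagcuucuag

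In the genome these are chr16:24827868-24827889, chr7:96249450-96249472, chr16:24827908-24827929 and chr7:96249496-96249517, in the order shown and all on the plus strand. The 5p arms of miR-28a and miR-708 had the same seed, AGGAGCU, and no other sequence matched in the count data did. Laid on each other without a gap they were identical at 16 of 22 positions. The 3p arms were identical at 17 of 21 positions when shifted by 1 base, with a common run of 8 bases, UGUGAGCU. That shift gave them different seeds, ACUAGAU and AACUAGA, and neither was found in another matched miRNA of these libraries. In miR-28a the 5p and 3p arms can pair over 8 consecutive Watson-Crick bases, and over 13 when G:U pairs are counted, while in miR-708 the longest runs were 5 and 11.

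Because the 5p arms share a seed, their counts can be added as 1 pool of reads with that seed. The pool had 2610 normalized counts at 0 μM, 2351 at 10 μM and 588 at 100 μM, with log2 ratios to 0 μM of -0.15 (-0.22 to -0.08) and -2.15 (-2.32 to -1.98). The latter was -3.67 with total counts and -2.73 when the 10 most abundant miRNAs were left out of the scaling. At 0 μM mmu-miR-708-5p provided most of this pool, and at 100 μM the 2 arms contributed about equally, with 166 and 155 counts. miR-28c, another entry of the family, whose hairpin GENCODE places at bases 53614205 to 53614279 of chromosome 15 (minus strand) in an intron of Samd12, had 690, 760 and 155 counts in its more abundant precursor entry. These are nearly the counts of mmu-miR-28a-5p (690, 762 and 155). The values of these 2 entries may rest on shared reads and cannot be told apart here, so miR-28c was left out of the pool and is not counted as a further member. Another precursor entry of miR-28c had 70, 78 and 13 counts.

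The 4 arms with a sequence had a GC content between 45.5% and 50.0%, near the median of 47.6% over 497 measured miRNAs. Both 3p arms began with C and both 5p arms with A. Over all measured miRNAs the median log2 ratio at 100 against 0 μM was 0.57 for the 103 that begin with C (quartiles -0.78 and 1.44) and -0.17 for the 133 that begin with A (-1.42 and 0.78). The 3p arms of miR-28a and miR-708 were thus above, and mmu-miR-708-5p below, the quartiles of the miRNAs with the same first base, while mmu-miR-28a-5p lay within them. Across the 497 miRNAs, which come from the same 3 libraries and are not independent replicates, Pearson's r between GC content and the log2 ratio was 0.15 at 100 μM and 0.09 at 10 μM. The part of the first base and of GC content in the values of this family was not tested.

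The level at 0 μM was also looked at. Of the 176 miRNAs with 100 to 1000 normalized counts at 0 μM, where both arms of miR-28a and mmu-miR-151-5p lie, 7.39% were above 2 and 10.2% below -2 at 100 μM. Among the 125 miRNAs with 1000 to 10000, where the other 3 arms lie, these shares were 14.4% and 7.20%.

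The miRNAs with the most similar pattern were found by the distance between pairs of log2 ratios (10 against 0 and 100 against 0 μM) over the 3 libraries, among those whose normalized counts averaged at least 100. mmu-miR-28a-3p and mmu-miR-708-3p were each other's nearest of 373 candidates, at a distance of 0.33. Both were selected on their values at 100 μM, which are part of this distance, so their nearness is a description of that choice. The next were miR-30e-3p (0.45) and miR-1981-5p (0.53) for mmu-miR-28a-3p, and miR-1981-5p (0.37) and miR-148a-3p (0.50) for mmu-miR-708-3p. mmu-miR-151-3p was nearest to miR-30a-3p (0.03), miR-10b-5p (0.05) and miR-292a-5p (0.06). For mmu-miR-708-5p the nearest were miR-17-3p (0.14), miR-140-5p (0.18) and miR-18a-5p (0.26), and for mmu-miR-151-5p they were miR-465a-5p (0.03), miR-10a-3p (0.04) and miR-31-5p (0.07). Apart from miR-28c, mmu-miR-28a-5p was nearest to miR-22-3p and miR-135a-5p, both at 0.13. With 3 libraries such a likeness rests on 2 values for each miRNA, and the 5p arms of the family were not among each other's nearest.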

How the data were processed

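Ovaries of newborn CD1 mice were sequenced for small RNA, with 1 library for each of 0, 10 and 100 μM DEHP. The authors trimmed the reads, used bowtie2 for the comparison with the mouse genome and miRDeep2 for counting, and deposited whole-number counts without normalization. The submitters' processing notes name mm10 and DESeq2, and tool versions and the miRBase release are not given in the sources used here. The deposited counts fill 961 rows for 627 mature miRNAs, of which 79 have several rows, and the row with the highest total was kept for each. Over all rows the libraries held 6916300, 6950297 and 6850706 counts. Since miRDeep2 can count a read for several precursors, entries of near-identical sequence can share reads.

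In R 4.3.3, DESeq2 1.42.0 gave the size factors and edgeR 4.0.16 the TMM and upper-quartile factors. Python 3.11.15 with SciPy 1.17.1 was used for the rest, and matplotlib 3.10.9 for the plots. Log2 ratios used a pseudocount of 0.5, a minimum mean normalized count of 10 and a threshold of 2. Intervals at 95% were exact Clopper-Pearson (ratios of counts, with the size factors taken as known), Wilson (shares), exact Poisson (levels) and exact conditional odds ratio intervals (arm ratios). Since no molecular identifiers were counted, reads are not independent molecules, and the intervals cover counting error only. The scripts were tested on simulated counts. No replicate test was possible.

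The members and lists were chosen with earlier results of these data known. The miRNAs named are the 6 arms, entries of the same seed or family, the 3 nearest patterns for each arm, the 3 hairpins with the largest arm change in each direction, the most abundant miRNA and the tissue markers. Other scalings tried were total counts, TMM, the upper quartile, and library sizes that leave out the 10 most abundant miRNAs of each library. Further alternatives were a pseudocount of 1, summed rows, a threshold of 1, and a minimum of 100 or none. Hairpin positions came from GENCODE M21. Targets, qRT-PCR and protein data were not analysed here.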

Additional observations from a re-analysis of the deposited data

How the results depend on the processing

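No paired analysis was possible because each concentration has a single library, and no replicate could be left out either. None of the alternatives changed the sign of an arm's log2 ratio, and all 18 recomputed changes of log2(3p/5p) of the 3 hairpins, with 1 count added or with summed rows, stayed within their counting intervals. Over all miRNAs, the median log2 ratio at 100 against 0 μM shifted by -1.50 with total counts and by -0.58 when the 10 most abundant miRNAs were left out of the library sizes. The log2 ratios of the arms moved with these common shifts. At 100 against 0 μM, total counts and the library sizes without the 10 most abundant gave 2.30 and 3.24 for mmu-miR-708-3p, 2.25 and 3.19 for mmu-miR-28a-3p, 1.47 and 2.40 for mmu-miR-151-3p, -4.31 and -3.37 for mmu-miR-708-5p, -3.15 and -2.22 for mmu-miR-151-5p, and -2.33 and -1.40 for mmu-miR-28a-5p. At 100 against 10 μM, in the same order, they gave 2.68 and 3.61, 2.31 and 3.23, 1.15 and 2.07, -4.09 and -3.17, -3.27 and -2.35, and -2.53 and -1.61. TMM moved mmu-miR-708-3p to 3.90 and mmu-miR-151-3p to 3.06 at 100 against 0 μM, and mmu-miR-151-3p to 2.73 at 100 against 10 μM. The upper quartile moved mmu-miR-151-3p to 0.36 at 10 against 0 μM and to 2.64 at 100 against 10 μM. These moves were outside the counting intervals, and the other 79 recomputed ratios stayed within theirs. The number of arms beyond the threshold was 4 in each comparison with 100 μM, and 5 with total counts, without the 10 most abundant, and at a threshold of 1. The number of all 587 miRNAs beyond the threshold was also higher in each of these settings. Of all miRNAs 116 (61 higher) were beyond 2 at 100 against 0 μM, 123 (72 higher) at 100 against 10 μM and 4 at 10 against 0 μM. With total counts they were 212 (4 higher) and 229 (8 higher) in the comparisons with 100 μM. Without the 10 most abundant they were 129 (28 higher) and 130 (33 higher). At 100 against 0 μM these were 0.681% higher and 35.4% lower with total counts, and 4.77% and 17.2% without the 10 most abundant. At 100 against 10 μM the same shares were 1.36% and 37.6%, and 5.62% and 16.5%. At a threshold of 1 the numbers beyond it were 308, 318 and 39, with 26.7% higher and 25.7% lower at 100 against 0 μM. With a mean of at least 100, where fewer miRNAs are counted, the numbers beyond 2 were 75, 81 and 1. At 100 against 0 μM the shares were then 13.4% higher and 6.68% lower, against 10.4% and 9.37% with the minimum of 10. With no minimum 9 were beyond 2 at 10 against 0 μM. The arm ratio changed beyond 2 in 60, 66 and 2 hairpins in the same order of comparisons, in 114, 121 and 31 at a threshold of 1, and in 36, 39 and 1 with a mean of at least 100, where fewer hairpins are counted. Depth limits the 5p arms most, since mmu-miR-151-5p had 95 counts at 100 μM.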
